A study of Mus musculus with 9 samples.

Results

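The genes described here are 10 markers of the primitive endoderm and of the basement membrane that this tissue lays down: Gata4, Gata6, Sox17, Sox7, Pdgfra, Dab2, Lama1, Lamb1, Col4a1 and Col4a2. They were chosen by symbol, and all 10 were found among the 16636 genes of the deposited count table. RNA was measured in 3 groups of E14 cells, a wildtype line of mouse embryonic stem cells, with 3 libraries per group. One group was untreated, one (siLuc) received a control siRNA against luciferase, and one (siStag3) received siRNA against Stag3, a subunit of the cohesin ring. Both siRNA groups were transfected with lipid over 48 hours. All groups shared the naive 2i/LIF medium, which holds the MEK inhibitor PD0325901, the GSK3 inhibitor CHIR99021 and the cytokine LIF, and plates coated with fibronectin. The series has 1 cell line and bulk RNA, and its design text calls the samples of a group biological replicates.

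The primitive endoderm is an early epithelium of the mouse embryo that sorts out from the pluripotent cells of the inner cell mass. FGF4 from those cells acts through FGF receptors and the MEK-ERK pathway to switch on GATA6, which is followed by PDGFRA, SOX17, GATA4 and SOX7. The mature layer takes up proteins with the help of DAB2 and lays down laminin-111, a trimer of the alpha 1, beta 1 and gamma 1 chains, and type IV collagen, a trimer of 2 alpha 1 chains and 1 alpha 2 chain. Cultures of embryonic stem cells are known to be able to hold a few cells of this kind.

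Each library's column carries 2 further numbers, for a set (1 or 3) and for an experiment, whose meaning the labels leave unsaid. Each group has 2 libraries of Set 1 and 1 of Set 3. Total counts ran from 29332436 to 44527534 per library, and a floor of 3 counts corresponds to 0.0650 to 0.0990 CPM. CPM is the count scaled to a common library total, here adjusted by TMM factors, which correct for differences in composition. The set was kept as a term in the fit, because 6076 of 14246 genes tested differed between the sets (42.7%). Stag3 was lower in siStag3 (14.8 ± 1.12 CPM) than in siLuc (24.2 ± 2.20; SD, n = 3), a difference of -0.71 in log2 terms (SE 0.0722, adjusted p 0.00205 in edgeR). The 10 naive pluripotency markers listed for these cells summed to between 4788 and 5224 CPM in every library.

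Promoter sequences were found for 5 of the 10 genes in a RefSeq table of windows around gene starts on GRCm38.p6, and 2 short stretches are shown because they bear on how the genes are arranged and on the GATA factors among them. Col4a1 and Col4a2 lie head to head and are transcribed away from each other. The start of Col4a2 on the plus strand and that of Col4a1 on the minus strand enclose 22 bases at chr8:11312805-11312826, shown on the plus strand:
Col4a1 and Col4a2 starts: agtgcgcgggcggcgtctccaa
In that table the transcribed regions of both genes include these bases. RefSeq also lists genes that overlap Gata6 (the antisense gene Gata6os), Pdgfra (Mir7025), Dab2 (Gm16311, Gm18888), Col4a1 (Gm15418, Gm32709) and Col4a2 (Gm46030). Whether counting used strand is not given in the sources used here. The GATA motif AGATAA, searched on both strands, occurred in 1 of 6 windows of the 5 genes (Dab2 has 2 windows), against 11.2% of all 32851 windows. The match lies 14 bases after a Dab2 start, in the window chr15:6299539-6299838 on the plus strand, with the motif, which reads on the minus strand, in capitals:
Dab2 match: tctctttggcTTATCTgctgtgcatt
The SOX motif ACAAT, also searched on both strands, occurred in none of the 6 windows, against 31.0% of all windows. With no SOX match there was no overlap between the motifs, and a match describes letters only.

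The transcription factors were at the edge of detection. Gata6, the first factor of the lineage, had counts of 13, 9 and 11 in untreated libraries, 4, 9 and 6 in siLuc and 7, 7 and 4 in siStag3. Sox17, an SRY-related factor of primitive and definitive endoderm, had 10, 5 and 3 counts in untreated libraries, 7, 3 and 1 in siLuc and 3, 5 and 2 in siStag3. Neither passed the filter on low counts. The groups overlapped for Sox17. For Gata6 the 3 siStag3 libraries (0.197, 0.221 and 0.132 CPM) all lay below the 3 untreated ones (0.365, 0.266 and 0.238 CPM), where 10% of the genes that passed the filter were apart in this way.

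Summed over each group, the 3 untreated libraries held 33 counts of Gata6, those of siLuc 19 and those of siStag3 18. The exact 95% Poisson intervals, which cover counting error only, were 0.196 to 0.401 CPM, 0.115 to 0.299 and 0.109 to 0.291, and they overlap. In a fit without the filter the log2 difference of Gata6 between siStag3 and untreated cells was -0.65 (SE 0.457, edgeR adjusted p 0.528).

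Gata4, a partner of GATA6 that acts later in the lineage, passed the filter with 4 to 19 counts. It was at 0.112, 0.355 and 0.412 CPM in untreated libraries, 0.318, 0.304 and 0.315 in siLuc and 0.197, 0.221 and 0.396 in siStag3. The lowest and the highest value both belonged to untreated cells, so the groups overlapped. Sox7, a factor of parietal endoderm and of vessels, was at 0.337, 0.118 and 0.0650 CPM in untreated libraries, 0.255, 0.276 and 0.410 in siLuc and 0.112, 0.347 and 0.264 in siStag3. It also overlapped between groups, and its largest log2 difference, 0.90 between siLuc and untreated cells, had a standard error of 0.574 (edgeR adjusted p 0.321). That difference was 0.22 within Set 1 and 2.66 within Set 3, where siLuc had 13 counts and untreated cells 3.

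The surface receptor and the endocytic adaptor were more abundant. Pdgfra, the receptor for PDGF-A that is used to sort primitive endoderm, was at 1.77, 1.89 and 1.80 CPM in untreated libraries, 2.01, 1.66 and 1.51 in siLuc and 1.69, 1.45 and 0.759 in siStag3. Every siStag3 library lay below every untreated one, and the lowest was the siStag3 library of Set 3, with 23 counts. Dab2, an adaptor for clathrin-mediated uptake, was at 0.954, 0.768 and 0.585 CPM in untreated libraries, 0.796, 0.911 and 0.504 in siLuc and 0.899, 0.725 and 0.231 in siStag3. Here too the siStag3 library of Set 3 was lowest, with 7 counts, and the groups overlapped.

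The 2 laminin chains were the most abundant of the 10. Lama1, the alpha 1 chain, was at 70.9, 62.3 and 89.0 CPM in untreated libraries, 53.4, 63.6 and 69.2 in siLuc and 53.6, 54.9 and 71.1 in siStag3. Lamb1, the beta 1 chain, was at 14.8, 13.2 and 17.1 CPM in untreated libraries, 15.5, 17.6 and 18.8 in siLuc and 13.6, 11.6 and 18.4 in siStag3. In each group the Set 3 library, listed last, was the highest for both chains.

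The collagen chains were low. Col4a1 was at 3.09, 3.16 and 2.73 CPM in untreated libraries, 3.37, 4.03 and 3.06 in siLuc and 3.54, 3.25 and 2.48 in siStag3, with 75 to 146 counts. Col4a2 was at 1.18, 1.95 and 1.13 CPM in untreated libraries, 1.69, 1.49 and 1.45 in siLuc and 1.85, 1.61 and 1.25 in siStag3. In each group the Set 3 library was the lowest for both collagen genes, the opposite order to that of the laminin genes.

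**Figure D1:**
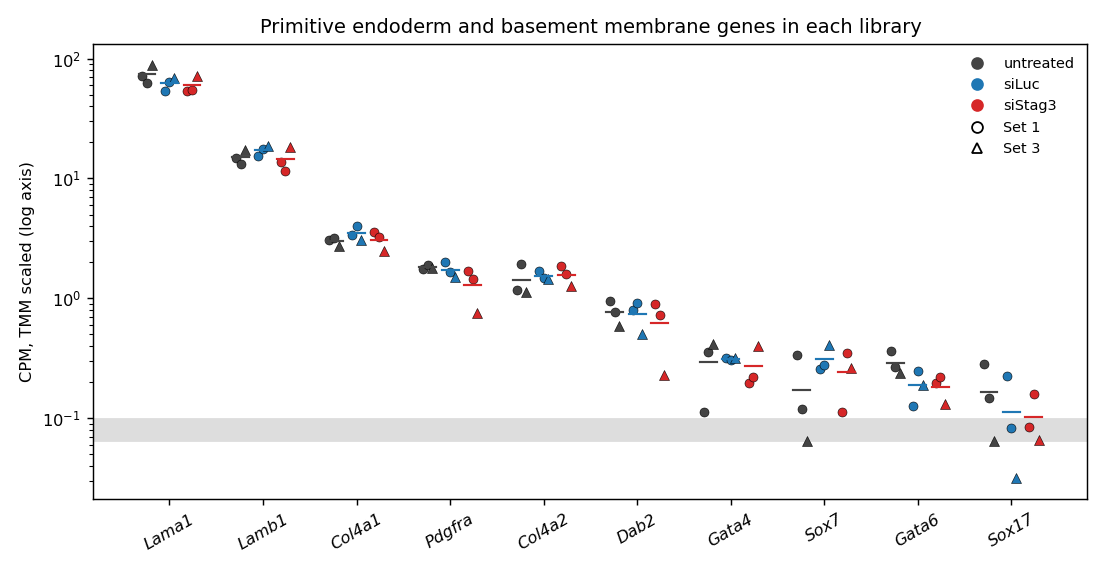
TMM-scaled CPM (log axis) of the 10 genes in each of 9 libraries, coloured by group, with circles for Set 1, triangles for Set 3 and a line at each group mean; the grey band spans 3 counts per library, 0.0650 to 0.0990 CPM. Lama1 lies between 53.4 and 89.0 CPM in every library, and Gata4, Gata6, Sox17 and Sox7 are at or below 0.412 CPM.

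Levels can be compared between genes once divided by transcript length, taken from GENCODE M21. In untreated cells Lama1 was at 7.78 ± 1.43 CPM per kilobase (SD, n = 3), Lamb1 at 2.60 ± 0.340, Col4a1 at 0.452 ± 0.0348 and Pdgfra at 0.266 ± 0.00942. Col4a2 (0.220 ± 0.0715), Dab2 (0.165 ± 0.0395), Gata6 (0.0896 ± 0.0205), Gata4 (0.0861 ± 0.0468), Sox7 (0.0525 ± 0.0436) and Sox17 (0.0507 ± 0.0335) followed. The untreated libraries of neighbours in this order were apart for Lama1 and Lamb1, for Lamb1 and Col4a1, for Col4a1 and Pdgfra, and for Dab2 and Gata6. The other neighbours overlapped: Pdgfra with Col4a2, Col4a2 with Dab2, Gata6 with Gata4, Gata4 with Sox7 and Sox7 with Sox17. Averaged over all 9 libraries, Lama1 was above 59.1% of the listed genes with a known length, and Sox17 above 7.93%.

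The chains of laminin-111 were far from equal in RNA. Lamc1, the gamma 1 chain shared by most laminins, was at 94.0 CPM per kilobase over the 9 libraries, 14.0 ± 2.39 times Lama1 and 35.7 ± 7.12 times Lamb1 (SD over 9 libraries). The chains Lama5 and Lamb2, which can take the place of alpha 1 and beta 1, were at 2.27 ± 0.235 times Lama1 and 4.11 ± 0.729 times Lamb1. Nid1, which links laminin to collagen IV, was at 143 ± 17.7 times Col4a1 per kilobase. Col4a1 was at 2.10 ± 0.347 times Col4a2, within a range of 1.58 to 2.64 over the libraries. These pairs were chosen after group levels had been seen, and lengths refer to 1 transcript per gene.

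**Figure D2:**
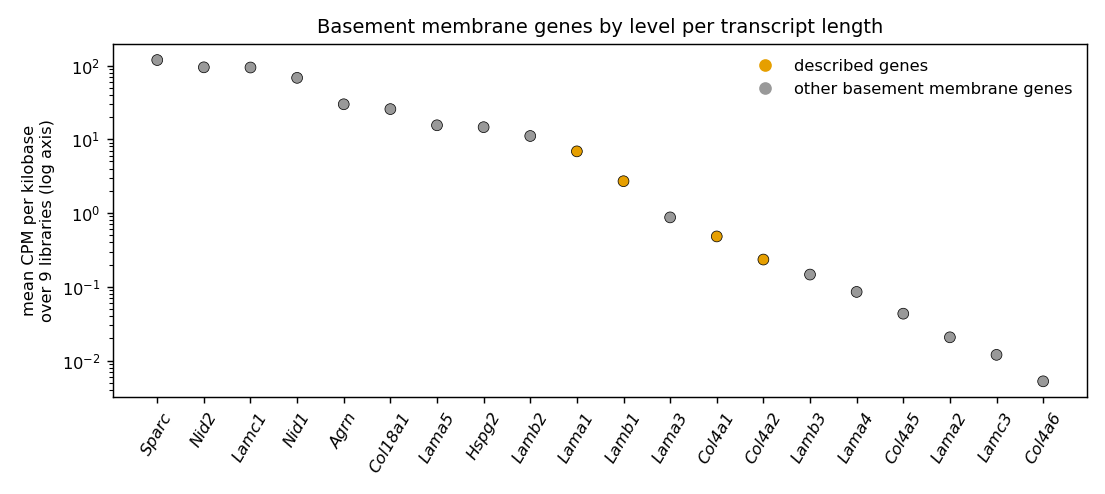
Mean level per kilobase of transcript over 9 libraries (log axis) for laminin, type IV collagen, nidogen and other basement membrane genes, each point 1 gene, with the genes described here in orange. Sparc, Nid2, Lamc1 and Nid1 are highest, Lama1 and Lamb1 are at 6.86 and 2.70 CPM per kilobase, below Lama5 and Lamb2, and Col4a1 and Col4a2 are at 0.482 and 0.234.

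The first comparison, siStag3 against siLuc, asks what changed with Stag3 knockdown beyond transfection. None of the 8 genes that passed the filter was called in edgeR's quasi-likelihood test with the set term (Benjamini-Hochberg adjusted p under 0.05 over all 14246 genes), where 0.0281% of all genes were called. DESeq2 called none of the 6 for which it gave an adjusted p (not Gata4 and Sox7), where it called 0.157% of all genes. The groups overlapped for all 8, where 6.59% of all genes tested were apart. Of the 8 genes, 7 had a negative log2 difference, with a median of -0.25 against -0.00479 over all genes, but 1 of them had an unadjusted p under 0.05. That gene was Lamb1, at 17.3 ± 1.68 CPM in siLuc and 14.5 ± 3.47 in siStag3 (SD, n = 3). Its log2 difference was -0.27 (SE 0.0991, edgeR adjusted p 0.518), from -0.39 within Set 1 to -0.03 within Set 3. Pdgfra differed by -0.41 (SE 0.216, edgeR adjusted p 0.661), -0.22 within Set 1 and -0.99 within Set 3. Lama1 differed by -0.06, with a 95% interval of -0.23 to 0.10.

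The interval of the difference shows what these data can tell for the rest. It was -0.46 to 0.10 for Col4a1 and -0.42 to 0.48 for Col4a2 on the log2 scale. It widened to -0.90 to 0.35 for Dab2, -1.18 to 0.71 for Gata4 and -1.59 to 0.80 for Sox7. In the fit without the filter it was -1.12 to 1.00 for Gata6 and -1.61 to 1.43 for Sox17, so a change by a factor of 2 in either direction lies inside these intervals or at their edge. With bulk RNA, fewer cells that express a gene and less RNA per cell cannot be told apart.

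The second comparison, siLuc against untreated cells, covers lipid and control siRNA together, which no group separates. In Set 3 the siLuc library is of experiment 1 and the untreated one of experiment 5. None of the 8 genes was called, where 4.2% of all genes were called, and none was apart between the groups, where 19.9% of all genes tested were. Lama1 and Lamb1 differed in opposite directions. Lama1 averaged 74.1 ± 13.7 CPM without treatment and 62.1 ± 7.99 with siLuc, a log2 difference of -0.25 (SE 0.0758, edgeR adjusted p 0.0717), -0.19 within Set 1 and -0.36 within Set 3. The mitochondrial share of counts moved with the same groups, at 4.41, 5.33 and 3.48% in untreated libraries and 6.73, 6.08 and 5.98% in siLuc, and its part in the result was not tested. It was 6.60, 6.78 and 4.10% in siStag3. Lama1 passed with DESeq2 (adjusted p 0.0412, where 11.6% of all genes were called), and when the siLuc library of Set 1 experiment 3 was left out (-0.34, edgeR adjusted p 0.0373). Lamb1 averaged 15.0 ± 1.97 CPM without treatment and 17.3 ± 1.68 with siLuc, a difference of 0.21 (SE 0.0980, edgeR adjusted p 0.188), 0.24 within Set 1 and 0.13 within Set 3. With a correction for GC content beside the set term it passed (0.25, edgeR adjusted p 0.0492), in a fit that called 6.98% of all genes. Without the set term neither gene passed (edgeR adjusted p 0.619 for Lama1 and 0.670 for Lamb1), in a fit that called 1 of all 14246 genes. Col4a1 differed by 0.22 (SE 0.130) and Col4a2 by 0.13 (SE 0.209), with edgeR adjusted p of 0.288 and 0.713.

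The third comparison, siStag3 against untreated cells, shares the untreated libraries with the second. It combines transfection with a partial knockdown of Stag3, whose RNA was at 0.577 times the untreated level. Again none of the 8 genes was called, where 2.53% of all genes were called, and Lama1 lay at the threshold. It was at 59.9 ± 9.76 CPM in siStag3, a log2 difference of -0.31 from untreated cells (SE 0.0759, edgeR adjusted p 0.0501). The difference was -0.30 within Set 1 and -0.32 within Set 3. Lama1 passed in 7 of 16 alternative analyses, among them the GC correction (-0.27, edgeR adjusted p 0.00491, where 6.79% of all genes were called) and DESeq2 (-0.30, adjusted p 0.0176, where 3.3% of all genes were called). It also passed when the untreated library of Set 1 experiment 3 (edgeR adjusted p 0.0397) or the siStag3 library of Set 3 (0.0271) was left out. The adjusted p ranged from 0.00491 to 0.882 over these alternatives, and the fit without the set term gave the highest value. That fit called 2 of all 14246 genes in this comparison.

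Pdgfra averaged 1.82 ± 0.0644 CPM in the untreated group and 1.30 ± 0.482 with siStag3, a log2 difference of -0.51 (SE 0.211, edgeR adjusted p 0.243). It was the 1 gene of the 8 tested whose siStag3 and untreated libraries did not overlap, where 10% of all genes tested did not. The difference was -0.22 within Set 1 and -1.24 within Set 3, and it was -0.25 when the siStag3 library of Set 3 was left out. Dab2 had the same shape, at -0.08 within Set 1 and -1.34 within Set 3, with a difference of -0.36 over both (SE 0.284, edgeR adjusted p 0.544). A test of whether each contrast differed between the sets called none of the 8 genes in any of the 3 comparisons, where 1.12% (siStag3 against siLuc), 0.014% (siLuc against untreated) and 0.00702% (siStag3 against untreated) of all genes were called. The smallest adjusted p in those tests was 0.280, for Lamb1 between siStag3 and siLuc (edgeR).

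**Figure D3:**
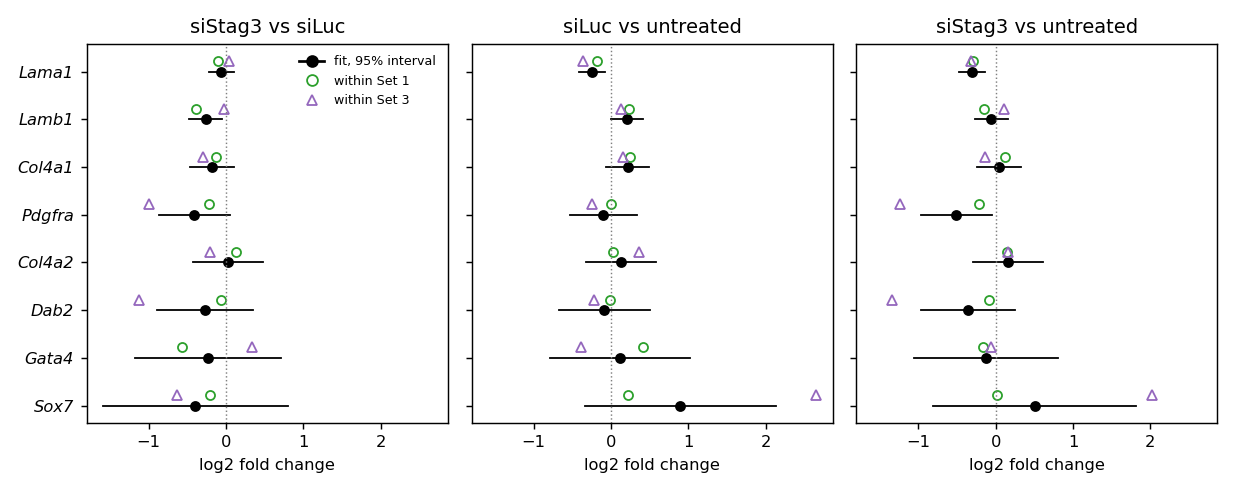
Log2 fold change with its 95% interval (black) for the 8 tested genes in the 3 comparisons, from the fit with the set term, and the difference within Set 1 (green circles, 2 libraries per group) and within Set 3 (purple triangles, 1 library per group). Lama1 lies at -0.25 and -0.31 against untreated cells. Dab2, Pdgfra and Sox7 lie furthest apart between the sets in siStag3 against untreated cells, with Sox7 higher in Set 3 (0.01 in Set 1, 2.02 in Set 3). In siStag3 against siLuc these are Dab2, Gata4 and Pdgfra, with Gata4 at -0.58 in Set 1 and 0.33 in Set 3.

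The ratio of Lama1 to Lamb1 within a library does not depend on how libraries are scaled, and it was examined after the levels had been seen. Per kilobase it was 2.91, 2.86 and 3.16 in untreated libraries, 2.10, 2.19 and 2.24 in siLuc and 2.39, 2.87 and 2.35 in siStag3. All siLuc libraries were below all others, and siStag3 lay between the other groups on average (2.53 ± 0.288; SD, n = 3) with an overlap with untreated cells. Of all single genes tested, 19.9% were apart between siLuc and untreated cells and 6.59% between siStag3 and siLuc. How often the ratios of other gene pairs are apart was not tested. The log2 ratio differed by -0.45 between siLuc and untreated cells and by 0.21 between siStag3 and siLuc. In each case the two-sided exact permutation test gave p = 0.1, the smallest that 3 against 3 libraries allow (0.3 adjusted over 6 such tests). Between siStag3 and untreated cells the difference was -0.24 (exact permutation p = 0.2). The ratio of Col4a1 to Col4a2 overlapped between all groups.

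**Figure D4:**
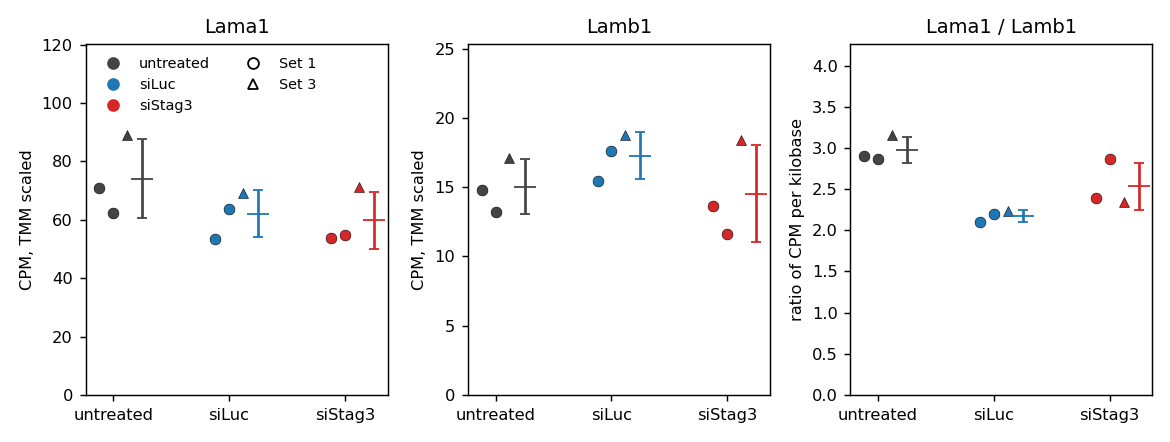
Lama1 and Lamb1 in TMM-scaled CPM and their ratio per kilobase of transcript in each library, with circles for Set 1, triangles for Set 3, and the group mean with SD (n = 3) beside the points. The ratio lies between 2.10 and 2.24 in siLuc and between 2.86 and 3.16 in untreated cells.

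The sets differed more than the groups. Between Set 3 and Set 1, 4 of the 8 tested genes were called, where 42.7% of all genes were called (21.4% higher and 21.2% lower in Set 3). Lama1 (76.5 against 59.8 CPM, log2 difference 0.35, SE 0.0649, edgeR adjusted p 0.000875) and Lamb1 (18.1 against 14.4 CPM, 0.34, SE 0.0841, adjusted p 0.00611) were higher in Set 3. Dab2 (0.440 against 0.842 CPM, -0.91, SE 0.259, edgeR adjusted p 0.0121) and Col4a1 (2.75 against 3.41 CPM, -0.30, SE 0.116, adjusted p 0.0481) were lower. No Set 3 library overlapped with a Set 1 library for Dab2 or Col4a1, where 26.2% of all genes tested were apart. With the GC correction Col4a2 also passed (-0.62, SE 0.196, edgeR adjusted p 0.0156, against -0.35, SE 0.184 and adjusted p 0.136 without it), where 41.5% of all genes were called. Col4a1 kept its call in 1 of 9 fits that left out 1 library, the one without the siLuc library of Set 1 experiment 1. Without the siStag3 library of Set 3, Lama1 was the 1 gene of the 8 that still passed. The Set 3 libraries of Sox17 (0.0542 CPM on average) all lay below those of Set 1 (0.163), a log2 difference of -1.52 (SE 0.649, edgeR adjusted p 0.0788) in the fit without the filter, at no more than 3 counts. Col1a1, a fibroblast collagen gene, was also lower in Set 3 (-1.30, edgeR adjusted p 0.00455). The 7 fibroblast markers in the table summed to 1.76 to 3.06 CPM in untreated libraries, 1.80 to 2.32 in siLuc and 1.91 to 2.49 in siStag3, with Col3a1, Lum, Postn and Acta2 at 0 in at least 1 library. Their part in the differences was not tested.

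**Figure D5:**
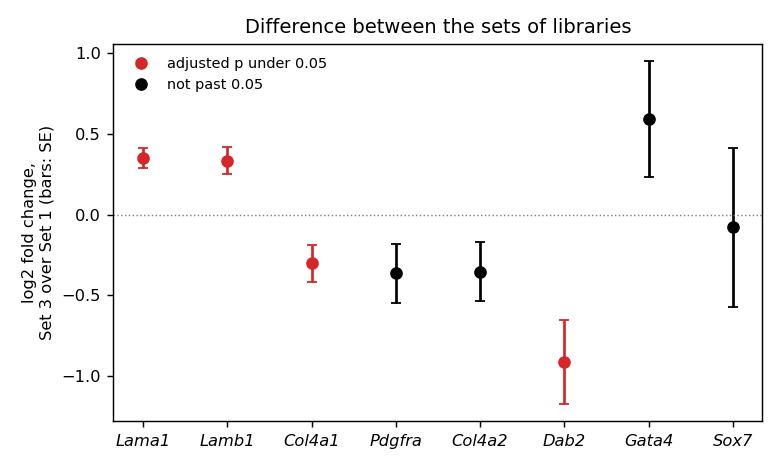
Log2 fold change of Set 3 (3 libraries) over Set 1 (6 libraries) with its SE for the 8 tested genes, from the fit with group means and the set; red marks an adjusted p under 0.05. Lama1 and Lamb1 are higher in Set 3, Col4a1 and Dab2 are lower.

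Other genes of the lineage were listed to place these 10. Of 13 further primitive endoderm genes, 11 were in the table and 6 passed the filter. None of the 6 was called in any of the 3 comparisons. The highest were Lrp2 (20.4 CPM on average), the endocytic receptor megalin, and Fst (10.3 CPM), which encodes the activin-binding protein follistatin. Lrp2 differed by 0.04 between siStag3 and siLuc (SE 0.0848) and Fst by 0.22 (SE 0.0958), with edgeR adjusted p of 0.912 and 0.614. The summed level of the 11 genes was 32.7 to 43.4 CPM in untreated libraries, 37.2 to 42.3 in siLuc and 36.4 to 43.4 in siStag3. Hhex (7.07 CPM), Hnf4a (0.963 CPM), Thbd (0.424 CPM) and Cubn (0.367 CPM) also passed the filter. Foxa2, Amn, Afp, Pth1r and Cer1 did not pass it, and Afp and Pth1r were at 0 in at least 1 library.

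Of 13 tested basement membrane genes besides the 4 described here, 1 fell in siLuc against untreated cells (4.2% of all genes were called), and none was called in siStag3 against untreated cells or against siLuc in edgeR's test. Lamb2, the beta 2 chain, averaged 70.9 ± 16.6 CPM without treatment, 55.9 ± 7.41 with siLuc and 60.4 ± 19.6 with siStag3 (SD, n = 3). It fell in siLuc by 0.33 on the log2 scale (SE 0.0834, edgeR adjusted p 0.0461). The call was lost in each of 6 fits that left out 1 library, with the GC correction (adjusted p 0.0619) and without the set term (0.623). The fit without the set term called 1 of all 14246 genes in that comparison. The most abundant of the 13, Lamc1, had a siStag3 level within 0.04 of siLuc on the log2 scale (SE 0.0685, adjusted p 0.887 in edgeR). The median log2 difference of the 13 genes was -0.11 in siLuc and -0.11 in siStag3 against untreated cells, and 0.04 in siStag3 against siLuc, where that of all genes lay between -0.00561 and -0.00242.

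Among 13 tested enzymes and carriers of collagen folding, 1 rose in siLuc against untreated cells, where 4.2% of all genes were called. This was P4ha1, a subunit of collagen prolyl 4-hydroxylase, which differed by 0.43 on the log2 scale (SE 0.0641, edgeR adjusted p 0.00289). P4ha1 was called in all 6 fits that left out 1 library. Without the set term it was not called (adjusted p 0.582), in a fit that called 1 of all 14246 genes. None of the 13 was called in the other 2 comparisons. Of 9 tested receptors for basement membrane proteins, none was called in the 3 comparisons. The most abundant were Dag1 (180 CPM), which encodes dystroglycan, and Itga6 (117 CPM), the integrin alpha 6 chain. With the GC correction, the laminin-binding integrin gene Itga3 passed in siStag3 against siLuc (0.52, edgeR adjusted p 0.0181) and against untreated cells (0.36, adjusted p 0.0251). These calls stand against 0.429% and 6.79% of all genes called in those fits. Under that correction Bcam passed in siLuc (-0.19, adjusted p 0.0343), Col18a1 in siLuc (0.18, adjusted p 0.0110) and Hspg2 in siStag3 (-0.29, adjusted p 0.0111), each against untreated cells. Of all genes, 6.98% were called there in siLuc and 6.79% in siStag3.

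The genes whose profile over the 9 libraries lay closest to that of 3 of the 10 were found by the root mean square difference of centred log2 CPM, among 11228 genes. Closest to Lama1 were Trafd1 (0.0532), Romo1 (0.0572) and Aldh1l1 (0.0622). Closest to Lamb1 were Xpnpep2 (0.0676), Thbs3 (0.0690) and Rgs9bp (0.0834), and closest to Col4a1 were Epc2 (0.0583), Ralgapa1 (0.0588) and Tle4 (0.0654). Lamb1 ranked 3486th in closeness to Lama1 (0.203), and Col4a1 ranked 9147th (0.375). The other 7 genes had too low a mean level for this measure (under 1 log2 CPM). Set, group and depth are shared by all these profiles.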

How the data were processed

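The authors deposited raw counts per gene for 9 libraries, as whole numbers. The submitters' processing notes name FastQC, Salmon, DESeq2 and GRCm39, without saying which made the counts. Strand setting and annotation release are not given in the sources used here. Libraries were KAPA mRNA HyperPrep, per the labels' protocols. Genes with fewer than 9 counts in all are not in the table.

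Columns were assigned to groups by name. Genes were tested with edgeR 4.0.16 in R 4.3.3 (filterByExpr, TMM, robust glmQLFit, glmQLFTest; 14246 genes, group means plus the set, 5 residual degrees of freedom), with two-sided p-values, Benjamini-Hochberg adjustment across the genes tested and a threshold of 0.05. The SE is the absolute log2 fold change over the square root of F. The 2 genes under the filter come from a fit without it. The biological coefficient of variation was 7.62% with the set and 14.6% without. GC content and length are those of the longest coding GENCODE M21 transcript, and the GC correction used 20 bins. All 10 genes and the lists were chosen with earlier results of these data known. A few genes of the lists are not reported here and were left out of the list counts. The rule named all 10 genes, list genes past the threshold (or the 2 highest where none passed) and the 3 closest profiles. DESeq2 1.42.0 was an alternative. In data simulated for siStag3 against siLuc over 14246 genes, the test recovered 92% of genes changed by 1 on the log2 scale and 67% of those changed by 0.5. It made 10 false calls. Every simulated gene had the same coefficient of variation of 7.62%, and changed genes were drawn at all levels. These shares are therefore not those of the described genes with few counts.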

Additional observations from a re-analysis of the deposited data

How the results depend on the processing

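Counts below are of the described genes past the threshold. They are out of 8, except 7 with only the 2 groups compared, 5 with a filter at a mean of at least 50 counts and 10 with no filter. With DESeq2 they are out of those given an adjusted p (3 in siLuc and 5 in siStag3 against untreated cells). In siLuc against untreated cells the count was 0, and 1 with the GC correction (Lamb1), 1 with DESeq2 (Lama1) and 0 to 1 over 6 fits that left out 1 library. In siStag3 against untreated cells it was 0, and 1 (Lama1) with total count only, with the GC correction, with the 2 groups alone, with DESeq2 and with no filter, and 0 to 1 over 6 fits that left out 1 library. In siStag3 against siLuc it was 0 in every alternative run. Between the sets it was 4, and 1 to 4 over 9 fits that left out 1 library. It was 3 with total count only, with DESeq2 and with no filter, each time without Col4a1. With a mean of at least 50 counts it was also 3, and there Dab2 was not among the genes tested. Chosen after seeing the data, the GC correction gave 5 and the experiment number as a block gave 0 between the sets. In the block fit the set term rests on the siLuc library of Set 3, the only Set 3 library outside experiment 5. That 0 is therefore not a check of the 4. For the test of whether a group comparison differed between the sets, the count was 0 in the 3 alternatives run. The cause of each change was not tested.

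Some signs turned. In siStag3 against siLuc, Gata6 (-0.06) was 0.089 with the experiment number as a block and 0.12 in Set 1 alone, Sox7 (-0.40) was 0.010 with the block, and Col4a2 (0.03) was -0.047 with the GC correction. In siLuc against untreated cells Pdgfra (-0.10) was 2.18e-05 in Set 1 alone. In siStag3 against untreated cells Sox7 (0.50) was -0.033 in Set 1 alone, and Col4a1 (0.04) was -0.00741 with total count only. With 1 library left out, siStag3 against siLuc ran from -0.33 to 0.15 for Gata6, -0.49 to 0.60 for Sox17, -0.77 to 0.013 for Sox7, -0.12 to 0.034 for Lama1 and -0.064 to 0.13 for Col4a2. siLuc against untreated ran from -0.22 to 0.45 for Gata4, -0.19 to 0.10 for Pdgfra, -0.24 to 0.098 for Dab2 and -0.036 to 0.37 for Col4a2. siStag3 against untreated ran from -0.44 to 0.16 for Gata4, -0.10 to 1.46 for Sox7, -0.16 to 0.039 for Lamb1, -0.022 to 0.11 for Col4a1 and -0.00986 to 0.40 for Col4a2.

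The columns carry experiment numbers and not the replicate numbers of the labels. In Set 1 the differences between experiments 1 and 3 correlated across genes at -0.0254 to -0.0439 between groups, so nothing in Set 1 shows that the numbers pair the libraries. Set 3 could not be examined in this way, and there siLuc is of experiment 1 and the other groups are of experiment 5. With this block the count of described genes past the threshold stayed at 0 in all 3 comparisons. Over all genes the block moved the count from 598 to 86 in siLuc against untreated and from 4 to 2 in siStag3 against siLuc. It moved the count from 361 to 352 in siStag3 against untreated and from 6076 to 699 between the sets. With the block, the siLuc library of Set 3 alone fixes the set term, so that library adds nothing to the comparisons with siLuc. Depth limits Gata4, Gata6, Sox17 and Sox7, with 1 to 19 counts per library.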

Other observations

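The ligand of the lineage and its pathway were abundant in all groups. Fgf4, the ligand, was at 241 CPM on average, and none of 10 tested FGF pathway genes was called in the 3 comparisons in edgeR's test with the set term. Their median log2 difference lay between 0.01 and 0.04. With the GC correction Fgf4 was higher in siStag3 than in untreated cells by 0.14 (edgeR adjusted p 0.0384), where 6.79% of all genes were called. Between the sets, 2 of the 10 were called higher and 2 lower in Set 3, where 42.7% of all genes were called. One of them, the receptor gene Fgfr2, differed by 0.94 (SE 0.0815, edgeR adjusted p 3.23e-06), higher in Set 3.

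Among 6 tested markers of the trophoblast, the other extraembryonic lineage of this stage, 1 fell in siStag3 against untreated cells, where 2.53% of all genes were called. Cdx2, a trophectoderm factor, averaged 1.40 ± 0.543 CPM without treatment, 0.905 ± 0.0746 with siLuc and 0.646 ± 0.194 with siStag3 (SD, n = 3). It differed by -1.11 in log2 terms between siStag3 and untreated libraries (SE 0.258, edgeR adjusted p 0.0379). The call was lost in 4 of 6 fits that left out 1 library and without the set term (adjusted p 0.542). The fit without the set term called 2 of all 14246 genes in that comparison. With the GC correction Eomes passed in siLuc against untreated libraries, at 0.51 (edgeR adjusted p 0.0417), where 6.98% of all genes were called. Of 10 naive markers, Dppa3 fell in siStag3 against untreated cells by 0.86 on the log2 scale (SE 0.102, edgeR adjusted p 0.000781). Dppa3 was called in all 6 fits that left out 1 library (edgeR adjusted p 0.000661 to 0.0133). That call was lost without the set term (adjusted p 0.0604), in the same fit that called 2 genes. Dppa3 was also lower in siLuc once GC was corrected (-0.42, edgeR adjusted p 0.0383), in the fit that called 6.98% of all genes. None of 4 tested mesoderm and definitive endoderm markers was called in the 3 comparisons, with Gsc at 2.65 CPM and Kdr at 2.01 CPM the highest.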
